A study of Arabidopsis thaliana with 4 samples.

Results

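Genes encoding Jumonji histone demethylases were followed in leaf RNA of *Arabidopsis thaliana*, 10 in all: *ELF6*, *REF6*, *JMJ13*, *JMJ14*, *JMJ15*, *JMJ16*, *JMJ18*, *JMJ30*, *JMJ32* and *IBM1*. They were taken by name and locus and make up 10 of the 32633 loci measured. There were 2 genotypes with 2 biological replicates each: *ldl1 ldl2* double mutants, made by crossing the T-DNA insertion lines *ldl1-1* and *ldl2-1*, and wild type (WT). Both are in the Columbia-0 background, and all plants were uninfected, 3 weeks old and grown in 12 h of light and 12 h of dark at 21 °C. Each library is bulk leaf RNA, so a lower level in fewer cells and a lower level per cell cannot be told apart. The labels give replicate numbers but do not say what a number marks. Each gene was therefore compared between genotypes within a replicate number, and between replicate numbers within a genotype.

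Jumonji C (JmjC) enzymes remove methyl groups from histone lysines with iron and 2-oxoglutarate, and unlike LDL1 and LDL2, which are flavin-dependent amine oxidases, they can act on trimethylated lysine. In *Arabidopsis*, ELF6, REF6, JMJ13, JMJ30 and JMJ32 remove methyl groups from lysine 27 of histone H3 (H3K27), the mark set by Polycomb repressive complex 2. JMJ14, JMJ15, JMJ16 and JMJ18 act on H3K4, as LDL1 and LDL2 do, and IBM1 acts on H3K9 within gene bodies. Several of these enzymes are known for control of flowering time through *FLC* or *FT*.

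Levels are FPKM, which count sequenced fragments relative to transcript length and to the library's mapped fragments and allow genes to be compared per length. Differences and ratios are on the log2(FPKM + 1) scale, which understates the change of low genes. The 4 libraries listed 11388 to 12113 loci at 0, and their depth, estimated from the FPKM steps of weakly expressed long transcripts, was 12780000 to 14600000 mapped fragments. Libraries of the same number but different genotype were closer to each other (Pearson's r across 16905 genes of 0.954 for both numbers) than the 2 *ldl1 ldl2* libraries (0.915) or the 2 WT libraries (0.846). The leaf label was checked against markers. The 4 photosynthesis genes lay between 2441 and 28445 FPKM, and the root genes *COBL9* and *EXPA7* at 0 in every library. *WOX5* was at 0 in both *ldl1 ldl2* libraries but detected in WT (0.119 FPKM in replicate 2 and 0.368 in replicate 1). The flower genes *AP3*, *PI* and *AG* were at 3.54 FPKM or less, but not evenly across libraries. *PI* and *AP3* were highest in WT replicate 2 (3.54 and 1.94 FPKM), against 0.0735 and 0.236 in WT replicate 1. In *ldl1 ldl2* replicates 2 and 1, *PI* had 0.21 and 1.13 FPKM and *AP3* 0.375 and 0.259. *AG* was highest in *ldl1 ldl2* replicate 1. Whether WT replicate 2 held some flower tissue was not tested. The deposited values do not separate reads before and after the T-DNA: *LDL1* had 4.09 and 4.44 FPKM in *ldl1 ldl2* replicates 2 and 1, against 5.0 and 4.37 in WT replicates 2 and 1, and *LDL2* had 0.67 and 0.28 in *ldl1 ldl2*, against 0.94 and 1.04 in WT.

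*JMJ30* stood out among the 10 genes by its difference between replicate numbers. It encodes a nuclear H3K27 demethylase whose transcript is known to peak in the evening, and is a known target of the morning clock factors CCA1 and LHY. Its promoter-proximal sequence is shown because it holds the evening element, the motif these factors bind (AAAATATCT, or AGATATTTT where it lies on the other strand). Windows from 500 bases before to 100 bases after each annotated start were searched on both strands, and no other motif was searched. *JMJ30* was the only one of the 10 genes with a match, and it had 2, both in the gene's own direction. They begin 11 and 38 bases from the annotated gene start, the start counted as base 1. Starts of the 5 annotated transcripts run from base 7275645 to base 7275706 of chromosome 3, and coding begins at base 7275814. Both matches thus lie before the coding region, after the first of these starts and before the last. The letters below are from RefSeq, TAIR10.1, in the direction of the gene, with the element in capitals and 8 flanking bases on each side. The first is chr3:7275647-7275671 and the second chr3:7275674-7275698, both on the plus strand.
*JMJ30* first element: agatacgaAAAATATCTgatcctaa
*JMJ30* second element: atcacttcAAAATATCTttctttcc

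Among the 16771 tested genes with a window, 933 (5.56%) held at least 1 evening element and 65 (0.39%) held at least 2. The 2 matches of *JMJ30* thus placed it in a small class of genes, and a match of letters does not show that a factor was bound there.

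*JMJ30* (AT3G20810, chr3:7275645-7278420, plus strand) had 10.05 and 0.77 FPKM in *ldl1 ldl2* replicates 2 and 1, against 19.02 and 1.16 FPKM in WT replicates 2 and 1. Replicate 2 was far above replicate 1 in both genotypes, and the values of the 2 numbers did not overlap. The difference was 2.64 on the log2(FPKM + 1) scale in *ldl1 ldl2* and 3.21 in WT, and as plain FPKM replicate 2 was 13.1-fold and 16.4-fold higher. Over both genotypes the difference was 2.93 ± 0.33 (SE, limma, n = 2 libraries of each number), with an adjusted p of 0.0107 (limma, Benjamini-Hochberg over 16905 genes), and it exceeded that of 99.11% of all tested genes. The call was lost on dropping WT replicate 1 (adjusted p = 0.0599, limma) or WT replicate 2 (adjusted p = 0.0845, limma). Replicate 1 rested on few fragments, an estimated 14 to 19 in *ldl1 ldl2* and 24 to 32 in WT over the annotated transcript lengths, while replicate 2 held 212 to 287 in *ldl1 ldl2* and 392 to 531 in WT.

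Within each replicate number *JMJ30* was lower in *ldl1 ldl2*, at 0.529 times the WT FPKM in replicate 2 and 0.665 times in replicate 1. The log2 ratios were -0.86 in replicate 2 and -0.29 in replicate 1, each resting on 1 library a genotype. The pooled genotype ratio of -0.57 ± 1.43 (SE, n = 2 each) had an adjusted p of 1.00 (limma), and the values of the 2 genotypes overlapped. That fit has no replicate term, so its SE also holds the replicate difference. With the replicate number as a block the SE was 0.26 and the adjusted p 0.474 (limma).

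**Figure D1:**
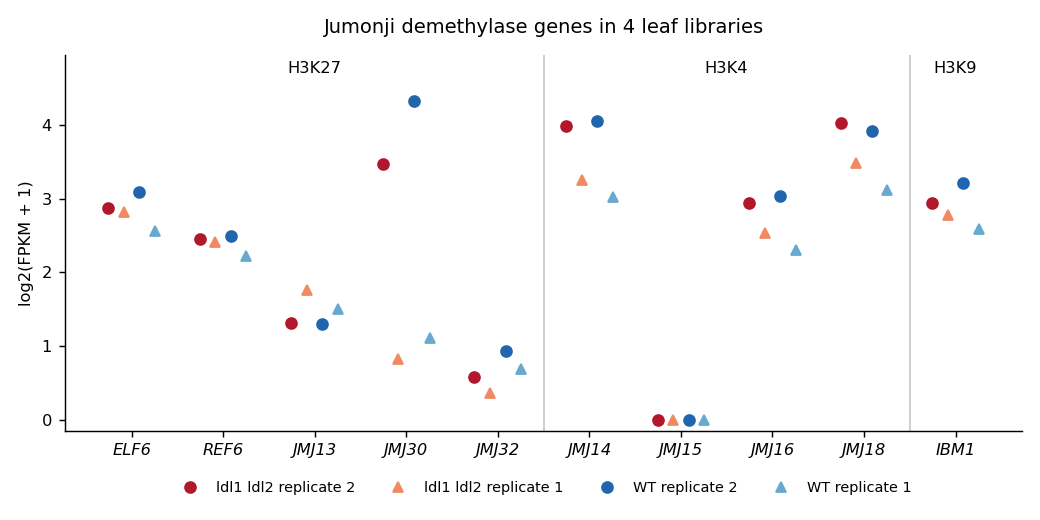
Level of each Jumonji gene as log2(FPKM + 1) in the 4 libraries, grouped by the histone residue its protein acts on; each point is 1 library, circles are replicate 2 and triangles replicate 1. *JMJ30* spans 0.77 to 19.02 FPKM, *JMJ15* lies at 0 in every library, and the other genes differ by at most 3.20-fold between libraries.

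The other H3K27 demethylases showed smaller differences. *ELF6* (AT5G04240, chr5:1169153-1174992, plus strand), known as a repressor of photoperiodic flowering, had 6.31 and 6.07 FPKM in *ldl1 ldl2* replicates 2 and 1, against 7.50 and 4.92 in WT replicates 2 and 1. The WT libraries held both the highest and the lowest value, so the genotypes overlapped. The replicate difference was 0.05 in *ldl1 ldl2* and 0.52 in WT (pooled 0.29 ± 0.21, SE, adjusted p = 0.384, limma). *REF6* (AT3G48430, chr3:17935256-17940792, plus strand), whose zinc fingers guide it to a DNA motif, had 4.46 and 4.30 FPKM in *ldl1 ldl2* replicates 2 and 1, against 4.65 and 3.65 in WT. It was the steadiest gene of those above 0, with a highest value 1.27-fold above its lowest. Its replicate difference was 0.04 in *ldl1 ldl2* and 0.28 in WT (pooled adjusted p = 0.607, limma). The small *ldl1 ldl2* differences of *ELF6* and *REF6* turned to -0.003 and -0.006 with upper quartile scaling and to -0.04 and -0.05 with quantile normalisation.

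*JMJ13* (AT5G46910, chr5:19046339-19051379, plus strand), a known temperature- and daylength-dependent repressor of flowering, had 1.48 and 2.38 FPKM in *ldl1 ldl2* replicates 2 and 1, against 1.46 and 1.82 in WT replicates 2 and 1. Among the 8 genes that reached the mean of 1 FPKM required for testing, it was the only one with lower values in replicate 2 in both genotypes (-0.45 in *ldl1 ldl2* and -0.19 in WT), and the pooled difference of -0.32 ± 0.24 (SE) did not pass the test (adjusted p = 0.397, limma). *JMJ32* (AT3G45880, chr3:16868914-16871609, minus strand), which acts with JMJ30 at *FLC* at warm temperature, had 0.49 and 0.28 FPKM in *ldl1 ldl2* replicates 2 and 1, against 0.90 and 0.61 in WT replicates 2 and 1. Both *ldl1 ldl2* values lay below both WT values, with log2 ratios of -0.35 in replicate 2 and -0.33 in replicate 1, and as plain FPKM it was 0.544 and 0.458 times WT. The mean ratio of -0.34 depended on the pseudocount, at -0.51 with a pseudocount of 0.5 and -0.83 with 0.1. *JMJ32* was below the minimum for the test, and its values rested on an estimated 5 to 14 fragments in *ldl1 ldl2* libraries and 11 to 26 in WT libraries. Lower values without overlap in *ldl1 ldl2* were found in 13.3% of tested genes.

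The H3K4 demethylases included the highest members of the family and the one listed at 0. *JMJ14* (AT4G20400, chr4:11008558-11013860, plus strand), known to repress *FT* and to act in RNA silencing, had 14.8 and 8.55 FPKM in *ldl1 ldl2* replicates 2 and 1, against 15.6 and 7.10 in WT replicates 2 and 1. Replicate 2 was above replicate 1 in both genotypes, by 0.72 in *ldl1 ldl2* and 1.04 in WT, while the genotypes overlapped. The pooled replicate difference of 0.88 ± 0.19 (SE, n = 2 each) passed the test narrowly (adjusted p = 0.0436, limma). The call was lost without any of the 4 libraries (adjusted p = 0.0728 to 0.265, limma), with no filter on low values (0.0869), without a mean-variance trend (0.0515), with upper quartile scaling (0.052) and with quantile normalisation (0.057).

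*JMJ18* (AT1G30810, chr1:10936765-10942292, minus strand), known from phloem companion cells, where it promotes flowering, had 15.2 and 10.2 FPKM in *ldl1 ldl2* replicates 2 and 1, against 14.1 and 7.66 in WT replicates 2 and 1. *JMJ16* (AT1G08620, chr1:2736656-2743881, plus strand), known as a repressor of leaf senescence, had 6.68 and 4.81 FPKM in *ldl1 ldl2* replicates 2 and 1, against 7.17 and 3.93 in WT replicates 2 and 1. For both genes replicate 2 lay above replicate 1 without overlap, but neither passed the test: the pooled difference was 0.67 ± 0.21 (SE, adjusted p = 0.0971, limma) for *JMJ18* and 0.57 (adjusted p = 0.122, limma) for *JMJ16*. *SUC2*, the companion cell sucrose transporter, had 133 and 168 FPKM in *ldl1 ldl2* replicates 2 and 1, against 156 and 170 in WT, lower in replicate 2 where *JMJ18* was higher. *JMJ15* (AT2G34880, chr2:14711880-14716634, minus strand), an H3K4 demethylase whose overexpression is known to enhance salt tolerance, was listed at 0 in all 4 libraries. No ratio was computed for it.

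*IBM1* (AT3G07610, chr3:2425884-2433113, plus strand) keeps H3K9 methylation and the linked CHG DNA methylation out of active genes. It had 6.64 and 5.82 FPKM in *ldl1 ldl2* replicates 2 and 1, against 8.24 and 4.98 in WT replicates 2 and 1, with WT again holding both extremes. The replicate difference was 0.16 in *ldl1 ldl2* and 0.63 in WT (pooled 0.39, adjusted p = 0.247, limma). *EDM2* and *IBM2* are needed for full-length *IBM1* transcripts. *EDM2* had 9.44 and 6.33 FPKM in *ldl1 ldl2* replicates 2 and 1, against 11.1 and 7.27 in WT, and its replicate difference of 0.53 did not pass the test (adjusted p = 0.133, limma). *IBM2* had 0.54 and 0.74 FPKM in *ldl1 ldl2* replicates 2 and 1, against 1.42 and 0.78 in WT, and was below the minimum. The gene-level FPKM does not tell the short and long *IBM1* transcripts apart.

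Ordered by mean FPKM over the 4 libraries, the genes ran *JMJ18* (11.8), *JMJ14* (11.5), *JMJ30* (7.75), *IBM1* (6.42), *ELF6* (6.20), *JMJ16* (5.65), *REF6* (4.26), *JMJ13* (1.79), *JMJ32* (0.572) and *JMJ15* (0). Neighbours from *JMJ18* through *REF6* overlapped in their ranges, whereas *REF6* lay above *JMJ13*, *JMJ13* above *JMJ32* and *JMJ32* above *JMJ15* in every library compared with every other. *JMJ14* ranked 2 in each library. *JMJ30* ranked 3 in *ldl1 ldl2* replicate 2 and 1 in WT replicate 2, but 8 in replicate 1 of both genotypes.

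As a sum, the 5 H3K27 demethylase genes reached 22.8 and 13.8 FPKM in *ldl1 ldl2* replicates 2 and 1, against 33.5 and 12.2 in WT replicates 2 and 1. *JMJ30* supplied 44.1% and 5.58% of that sum in *ldl1 ldl2*, against 56.7% and 9.52% in WT. Without it the other 4 genes summed to 12.7 and 13.03 FPKM in *ldl1 ldl2* replicates 2 and 1, against 14.5 and 11.003 in WT, so that replicate 2 was 0.978 times replicate 1 in *ldl1 ldl2* and 1.32 times in WT. The difference of the H3K27 sum in *ldl1 ldl2* was thus carried by *JMJ30*. The H3K4 demethylase genes summed to 36.7 and 23.6 FPKM in *ldl1 ldl2* replicates 2 and 1, against 36.9 and 18.7 in WT, which is 1.56-fold and 1.97-fold between replicate numbers and was spread over *JMJ14*, *JMJ16* and *JMJ18*.

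The minimum mean of 1 FPKM was reached by 8 of the 10 genes, and *JMJ15* and *JMJ32* did not. Of these 8, 2 rose in replicate 2 (*JMJ30* and *JMJ14*) and none fell, where 6.58% of all tested genes rose and 5.14% fell (limma, adjusted p under 0.05). One, *JMJ30*, was at least 2-fold higher in replicate 2 in both genotypes, against 5.02% of all tested genes, and none was at least 2-fold lower, against 4.34%. *JMJ30* reached the minimum mean through replicate 2, with means of 14.5 FPKM there and 0.964 in replicate 1. Values of the 2 replicate numbers did not overlap for any of the 8: 7 were higher in replicate 2, against 40.6% of all tested genes, and 1 was lower, against 24.5%. The median difference of the 8 genes was 0.48, beside 0.138 over all tested genes, and the signed difference was more positive in WT than in *ldl1 ldl2* for 8 of 8 (for *JMJ13*, less negative), beside 58.1% of all. Upper quartile scaling and quantile normalisation brought the median of all tested genes in this comparison to 0.06 and 0.03, and under both *JMJ30*, *JMJ14*, *JMJ16*, *JMJ18* and *IBM1* stayed higher in replicate 2 in both genotypes. Of the 4 mesophyll genes used as leaf markers, 3 were lower in replicate 2 in both genotypes without overlap, and the median difference of the 4 was -0.94. The other, *LHCB1.3*, was higher in replicate 2 without overlap (difference 0.42, adjusted p = 0.268, limma). *RCA*, encoding Rubisco activase, fell by 1.46 (adjusted p = 0.0229, limma), with 2876 and 6497 FPKM in *ldl1 ldl2* replicates 2 and 1, against 2441 and 8143 in WT replicates 2 and 1. The part of this in the differences of the Jumonji genes was not tested.

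**Figure D2:**
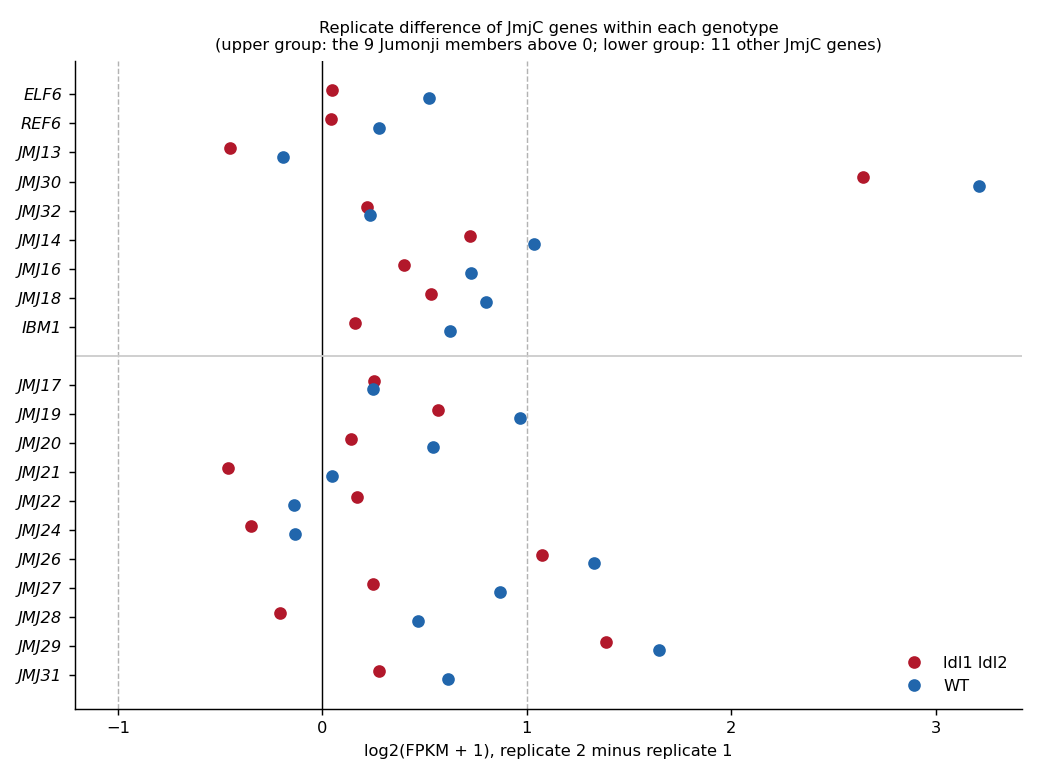
Difference of replicate 2 minus replicate 1 on the log2(FPKM + 1) scale for the Jumonji genes above 0 (upper rows) and 11 other JmjC genes (lower rows); each point is the difference between 2 libraries of 1 genotype, and dashed lines mark 2-fold. *JMJ30* lies at 2.64 in *ldl1 ldl2* and 3.21 in WT, and the next largest among these genes is *JMJ29*.

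Between genotypes none of the 8 tested genes passed the test in either direction, and neither did any of the 16905 genes in the fit without a replicate block, that is 0% higher and 0% lower (limma, adjusted p under 0.05); at an unadjusted p under 0.05 there were 394 genes (2.33%). An exact permutation test of 2 libraries against 2 cannot go below a two-sided p of 0.333. No member was at least 2-fold higher or lower in both replicate numbers, against 1.4% of all tested genes that were higher and 0.148% that were lower. Values of the 2 genotypes overlapped for all 8 tested genes, whereas 8.25% of all tested genes were higher and 13.3% lower in *ldl1 ldl2* without overlap. The median genotype ratio of the 8 was -0.08 in replicate 2 and 0.24 in replicate 1, beside -0.10 and 0.01 over all tested genes.

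The genes *ELF6*, *REF6*, *JMJ14*, *JMJ16* and *IBM1*, 5 of the 8, were higher in *ldl1 ldl2* in replicate 1 and lower in replicate 2, a pattern shown by 31.2% of all tested genes. None of the 8 had the opposite pattern, and ratios of opposite sign in either order were found in 48.8% of all. With quantile normalisation *REF6* left this group, its replicate 2 ratio turning to 0.01. The ratios in replicate 2 ranged from -0.27 for *IBM1* to -0.05 for *REF6*, and those in replicate 1 from 0.19 for *REF6* and *IBM1* to 0.26 for *ELF6*. A ratio higher in replicate 1 than in replicate 2 is the same quantity as a more positive replicate difference in WT. These counts are therefore not separate results. WT replicate 1 held the lowest value of *ELF6*, *REF6*, *JMJ14*, *JMJ16*, *JMJ18* and *IBM1*. WT replicate 2 held the highest value of the same genes except *JMJ18*, so the pattern leans on both WT libraries. *JMJ18* was higher in *ldl1 ldl2* in both (0.10 in replicate 2 and 0.37 in replicate 1), *JMJ13* likewise (0.01 and 0.26), and *JMJ30* and *JMJ32* were lower in both. Apart from those of *JMJ30*, the ratio farthest from 0 on the log2(FPKM + 1) scale was that of *JMJ18* in replicate 1 (0.37). As plain FPKM the change of *JMJ32* was larger, at 0.544 and 0.458 times WT in replicates 2 and 1, against 1.33 times for *JMJ18* in replicate 1.

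**Figure D3:**
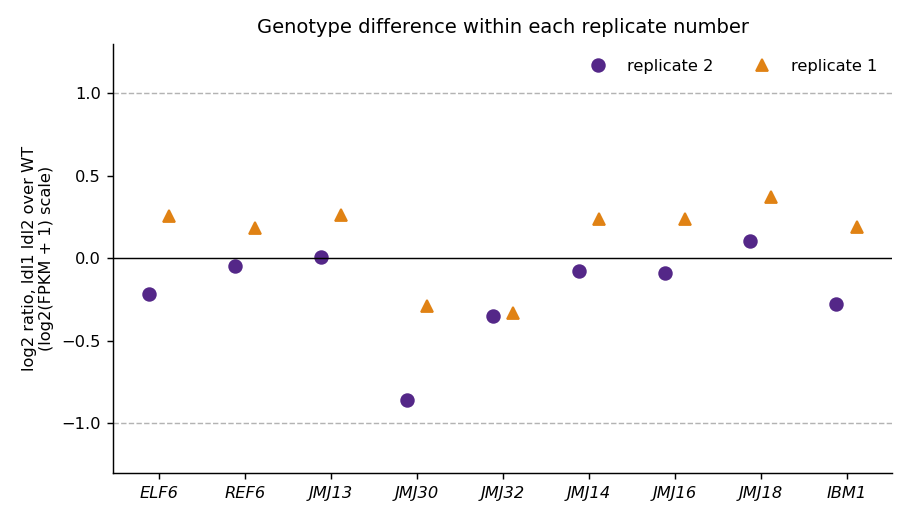
Log2 ratio of *ldl1 ldl2* over WT on the log2(FPKM + 1) scale within replicate 2 (circles) and replicate 1 (triangles); each point compares 2 libraries, and dashed lines mark 2-fold. In replicate 1, 7 of the 8 tested genes lie above 0, 2 of them (*JMJ13* and *JMJ18*) also in replicate 2, and *JMJ30* is lowest in replicate 2 at -0.86.

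Most of the clock genes differed far more between replicate numbers than the Jumonji genes other than *JMJ30* did. The exceptions were *PRR7* (0.86) and *PRR9* (-0.84), no larger in size than *JMJ14* (0.88). *TOC1*, an evening clock component whose known rhythm resembles that of *JMJ30*, had 88.03 and 3.48 FPKM in *ldl1 ldl2* replicates 2 and 1, against 109 and 2.94 in WT replicates 2 and 1. *CCA1*, a morning MYB-like repressor of evening genes, had 2.44 and 16.6 FPKM in *ldl1 ldl2*, against 3.85 and 50.4 in WT, and its partner *LHY* had 0.38 and 8.92 in *ldl1 ldl2*, against 0.24 and 22.9 in WT. The evening genes were thus high and the morning genes low in replicate 2 of both genotypes. *ELF4*, an evening complex subunit, showed the largest difference of the list (6.61), with 147 and 0.53 FPKM in *ldl1 ldl2* and 131 and 0.33 in WT. Of 11 clock genes, 7 rose in replicate 2 and 2 fell (limma), with a median difference of 2.94, and *JMJ30* at 2.93 sat close to that median. Within replicate 1, *CCA1* and *LHY* were lower in *ldl1 ldl2* (log2 ratios of -1.55 and -1.27). The part that the clock genes' difference has in that of *JMJ30* was not tested.

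**Figure D4:**
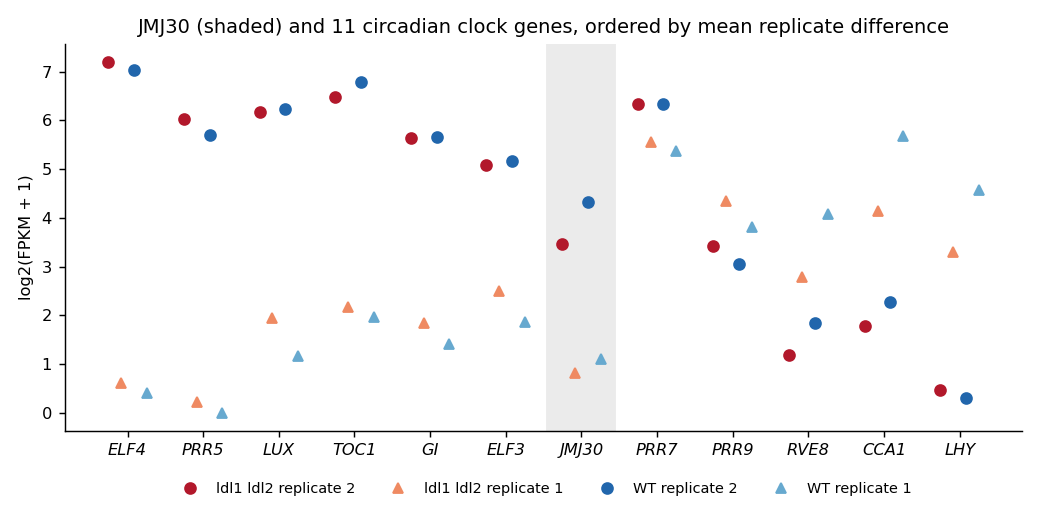
Level of *JMJ30* (shaded) and 11 circadian clock genes as log2(FPKM + 1) in the 4 libraries, ordered by the mean replicate difference; circles are replicate 2 and triangles replicate 1. *JMJ30* lies between *ELF3* and *PRR7*, with the evening genes higher in replicate 2 to its left and *CCA1* and *LHY*, lower in replicate 2, at the right.

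*JMJ30* had the largest replicate difference of the 10 genes and, with a pseudocount of 1, the largest mean genotype ratio in size, so the genes most like it were looked up. With a pseudocount of 0.1 the genotype ratio was larger in size for *JMJ32* (-0.83) than for *JMJ30* (-0.72). Across the 4 libraries its profile of log2(FPKM + 1), centred on its own mean, lay closest to that of *SIS*, at a Euclidean distance of 0.15. *SIS* had 117 and 18.01 FPKM in *ldl1 ldl2* replicates 2 and 1, against 228 and 20.3 in WT replicates 2 and 1, higher in replicate 2 and lower in *ldl1 ldl2* as *JMJ30* was. AT3G14360 (0.28), *AFP1* (0.33), AT5G15500 (0.38) and *BFT* (0.38) followed. These distances rest on 4 libraries and are a description of them.

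Genes with evening elements were set beside *JMJ30*. Of the 933 tested genes with at least 1 element, 182 (19.51%) were at least 2-fold higher in replicate 2 in both genotypes and the median difference was 0.39. Of the 65 with at least 2, among them *JMJ30*, 32 (49.23%) were, with a median of 1.16, beside 5.02% and 0.138 over all tested genes. At least 2-fold lower in both genotypes were 23 of the 933 and 1 of the 65, beside 4.34% of all tested genes. These sets also hold clock genes, 4 of 11 having an element and *PRR5* 2 of them. Of the clock genes with a match, *PRR5* (difference 5.74), *LUX* (4.65) and *TOC1* (4.56) were higher in replicate 2. *PRR9* (-0.84), whose match begins 27 bases from the start, was lower in both genotypes. Among those without a match, *ELF4* (6.61), *GI* (4.01), *ELF3* (2.94) and *PRR7* (0.86) were higher and *CCA1*, *LHY* and *RVE8* lower. The part that the element has in the difference of *JMJ30* was not tested.

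**Figure D5:**
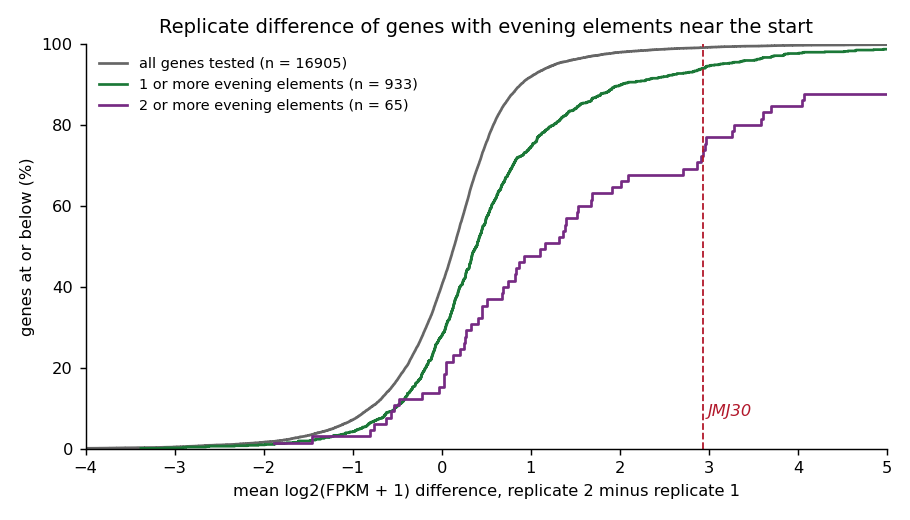
Cumulative share of genes by mean difference of replicate 2 minus replicate 1 on the log2(FPKM + 1) scale, for all tested genes, the 933 with at least 1 evening element and the 65 with at least 2; the dashed line marks *JMJ30* at 2.93. Curves further right mean higher values in replicate 2, and the medians are 0.138, 0.39 and 1.16.

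Of 11 other JmjC genes, 10 were tested, and 2 rose in replicate 2 while none fell. They were *JMJ29*, a relative of *IBM1*, and *JMJ26*, which belongs to the same group and was picked out after its values were seen. *JMJ29* had 15.04 and 5.12 FPKM in *ldl1 ldl2* replicates 2 and 1, against 15.8 and 4.36 in WT replicates 2 and 1 (difference 1.52, adjusted p = 0.0124, limma). *JMJ26* had 3.23 and 1.01 FPKM in *ldl1 ldl2* replicates 2 and 1, against 2.86 and 0.53 in WT (difference 1.20, adjusted p = 0.0441, limma). *JMJ26* reached the minimum mean of 1 FPKM through replicate 2, with means of 3.05 there and 0.774 in replicate 1. *JMJ29* and *JMJ26* were both at least 2-fold higher in replicate 2 in both genotypes. They were the only genes of the 11 with an evening element, each on the strand opposite to the gene. Their matches begin 474 bases (*JMJ29*, chr1:23040245-23040269) and 429 bases (*JMJ26*, chr1:4039478-4039502) before the annotated start, and are written in the direction of the gene, on the minus strand for both, beside that of *TOC1* (chr5:24674804-24674828, plus strand, 151 bases before the start). They are shown to compare the element of *JMJ30*, close to the start, with those of the other JmjC genes that rose. Letters are from RefSeq, TAIR10.1, with the element in capitals.
*JMJ29* element: atatcagaAGATATTTTcagtttct
*JMJ26* element: tttattgtAGATATTTTcttcataa
*TOC1* element: atatcatgAGATATTTTctccaaga

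Other enzymes that set or remove these marks were compared by list. None of the 6 tested of 8 PRC2 subunit genes, the 10 H3K4 and H3K36 methyltransferase genes, the 3 tested of 4 genes for H3K9 and CHG methylation, or the 3 tested of 4 *LDL* genes passed the test between replicate numbers, and their medians were 0.21, 0.21, 0.12 and 0.32, beside 0.48 for the Jumonji genes and 0.138 over all tested genes. Single genes ranged from -0.17 to 0.51 (PRC2), -0.43 to 0.49 (H3K4 and H3K36), -0.68 to 0.30 (H3K9 and CHG) and 0.03 to 0.38 (*LDL*), and no difference between these lists and the Jumonji genes was tested. Of 6 reference genes none passed and the median was 0.23. Of the flowering targets, *FLC* had 13.8 and 19.8 FPKM in *ldl1 ldl2* replicates 2 and 1, against 3.47 and 1.55 in WT replicates 2 and 1. *FT* was at 0.39 FPKM or less in every library. *SOC1*, a floral integrator, rose in replicate 2 (difference 2.07, adjusted p = 0.0113, limma), with 139 and 35.3 FPKM in *ldl1 ldl2* replicates 2 and 1, against 195 and 41.7 in WT replicates 2 and 1.

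Reads from overlapping genes could enter some of these values, since the sources used here do not say whether counting used the strand. *ELF6* shares 195 bases with AT5G04238 on the other strand, which had 28.5 and 14.2 FPKM in *ldl1 ldl2* replicates 2 and 1, against 25.3 and 9.17 in WT. *JMJ18* shares 1177 bases with AT1G30800, listed at 0 in every library, and *JMJ14* shares 22 bases with AT4G20410. *JMJ16* shares 121 bases with AT1G08630, and *JMJ32* shares 13 and 32 bases with its neighbours. *JMJ13* and *JMJ16* also share 268 and 175 bases with annotated loci that the tables used here do not list, and *REF6*, *JMJ15*, *JMJ30* and *IBM1* share none. The part of these neighbours in the values was not tested.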

How the data were processed

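Leaf mRNA of 4 libraries was analysed, 2 of *ldl1 ldl2* and 2 of WT. The authors aligned paired-end reads of stranded libraries with TopHat2 and Bowtie2 and deposited FPKM per locus, estimated with Cufflinks on TAIR10 for each library separately. The submitters' processing notes name Trimmomatic 0.33. For the other tools, versions were not given in the sources used here. Deposited FPKM values are not counts, and a 0 can be a failed estimate, so no count test was run.

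FPKM was used without rescaling as log2(FPKM + 1). The 16905 loci with a mean of at least 1 FPKM were fitted with limma 3.58.1 in R 4.3.3 (mean-variance trend, two-sided, Benjamini-Hochberg adjustment, threshold 0.05), once for genotype and once for replicate number, on all 4 libraries. That mean was taken over all 4 libraries, so a gene low in 1 replicate number could pass through the other. The genotype and replicate number fits were first run on simulated data with known changes. The genotype simulation held no replicate difference, so it does not show how many genotype changes that fit can find in these libraries. How many plants each replicate pooled was not described, and p-values measure the spread between these samples only.

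Depth was estimated from single-transcript loci over 2000 bases with FPKM under 0.1. Loci that imply 10000000 to 18000000 fragments a library were taken to hold 1 fragment, and their median gave the depth. This set range held 41.57% to 48.0% of the loci used in a library, and the depth cannot fall outside it. Fragments per gene follow from the depth and the transcript length. They carry counting error, the error of the estimated depth and that of the transcript length used. Names, positions and evening element windows came from RefSeq TAIR10.1, in which 31893 of 32633 loci matched.

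All 10 Jumonji genes are described. From other lists only *LDL1*, *LDL2*, *CCA1*, *LHY*, *TOC1*, *FLC*, *FT*, *IBM2*, *EDM2* and genes with the largest difference of their list are named, with the 5 genes most alike to *JMJ30*, and markers. *JMJ26*, *PRR5*, *ELF3*, *PRR7*, *PRR9*, *LUX*, *GI* and *RVE8* were named after their values were seen, and plots show whole lists. Members and lists were chosen with earlier results of these data known. Alternatives were pseudocounts of 0.1 and 0.5, no filter or a minimum of 5, upper quartile scaling, quantile normalisation, no trend, the replicate number or genotype as a further term, and each library left out.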

Additional observations from a re-analysis of the deposited data

Results flagged for a closer look

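Genotype ratios had opposite signs in the 2 replicate numbers for 5 genes, each ratio from 1 library a genotype, and the difference between the numbers was not tested. The log2 ratio of *ldl1 ldl2* over WT in replicate 2 minus that in replicate 1 was -0.473 for *ELF6*, -0.464 for *IBM1*, -0.327 for *JMJ16*, -0.314 for *JMJ14* and -0.235 for *REF6*. Ratios of opposite sign were found in 48.8% of all tested genes.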

How the results depend on the processing

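Between genotypes no gene passed the threshold, higher or lower, in the fit reported. Leaving out 1 library gave 0 to 3 genes higher and 0 to 1 lower, and the replicate number as a block gave 311 higher and 37 lower, none of the Jumonji genes among them; the labels do not say that the numbers pair the plants, and the correlation across genes between the genotypes' replicate differences was 0.726. Between replicate numbers, 1112 genes were higher and 869 lower, against 2238 and 1806 with genotype as a term, 454 and 288 with no filter on low values, and 30 to 770 and 3 to 664 with 1 library left out (30 and 3 without WT replicate 2). Genotype ratios reversed only on leaving out a library, when they ranged from -0.24 to 0.28 (*ELF6*), -0.0702 to 0.21 (*REF6*), -0.0875 to 0.36 (*JMJ13*), -0.44 to 0.60 (*JMJ14*), -0.29 to 0.44 (*JMJ16*), -0.16 to 0.64 (*JMJ18*), -2.18 to 1.04 (*JMJ30*) and -0.36 to 0.27 (*IBM1*); dropping a library leaves the replicate numbers unequal between genotypes, so these values carry the replicate difference as well. For *JMJ32*, not tested, the genotype ratio of -0.34 moved to -0.51 and -0.83 with pseudocounts of 0.5 and 0.1 and the replicate difference of 0.23 to 0.56 with 0.1. No replicate difference of a Jumonji gene changed direction over both genotypes. For *JMJ30* it ranged from 2.50 to 3.74 and its adjusted p from 5.83e-06 to 0.0845 (limma), and for *JMJ14* from 0.74 to 1.00 and 0.0193 to 0.265. With 2 libraries a group and few fragments in *JMJ30* in replicate 1 and in *JMJ32*, small differences were not detectable at this depth.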
